A study of Homo sapiens with 6 samples.

Results

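The genes of the IL6-family receptors, of the JAK kinases and STAT3 below them and of 3 feedback and target genes of this route were followed in H1975 cells exposed to the EGFR inhibitor Osi. They were IL6R, IL6ST, OSMR, LIFR, JAK1, JAK2, STAT3, SOCS2, SOCS3 and PIM1, picked from the table by their symbols, and all 10 were found among the 27216 rows of the deposited table. H1975 is an established human non-small cell lung cancer line that carries a mutated EGFR, and Osi (Osimertinib) is a tyrosine kinase inhibitor of that receptor. The table holds 3 parental samples, labelled as Osi for 0 h, and 3 adapted samples, labelled as 72 h at 1000 nM. The sources used here do not all name the same dose. Both groups are the same line, labelled wild type for genotype, and nothing in the labels says whether the 3 samples of a group were separate cultures, so p-values measure the spread between these samples, which may be technical. Apoptotic cells were washed off before RNA was taken, so the adapted samples are the cells that stayed on the plate. In the table the parental columns carry the name DMSO, and their time in culture is not given, so time in culture and treatment cannot be told apart.

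Cytokines of the IL6 family bind a receptor chain of their own and then signal through IL6ST (gp130), the shared chain. JAK kinases held on these chains phosphorylate STAT3, which enters the nucleus and switches on target genes. SOCS3, itself a STAT3 target, binds gp130 and JAK and shuts the signal down, and in lung cancer cells with mutated EGFR this route is known as a parallel supply of STAT3 activity.

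Values are log2(FPKM + 1). FPKM divides the fragments of a gene by the length of its transcript and by the mapped fragments of the library. The linear unit was inferred from the values, which summed to between 375342 and 387753 per sample. Read depth is unknown, and errors are those between replicates alone. Groups were compared with limma (two-sided, Benjamini-Hochberg adjustment over all 12656 rows with a mean of at least 1, threshold 0.05), and all 10 members were above that minimum. Of all rows tested, 56.9% passed the threshold, 30.7% higher and 26.2% lower in adapted cells. A count of calls therefore has to be read against a background in which most rows differed.

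Across rows (which are not independent) Pearson's r was at least 0.9972 between parental samples and 0.9961 between adapted replicates 2 and 3. For adapted replicate 1 it was 0.9909 and 0.9906 against these 2, so adapted replicate 1 stood apart. Results of members that rest on it are given with and without it, but this is not done for every listed gene. Epithelial markers were present in both groups, with EPCAM, an epithelial adhesion protein, at 7.60 ± 0.02 in parental and 7.45 ± 0.14 in adapted cells, although SFTPB, a surfactant protein, did not exceed 0.29 in any sample. Of the 9 epithelial markers tested 2 rose and 4 fell (66.7%, beside 56.9% of all rows), with log2 fold changes from -0.81 (NAPSA) to 1.07 (KRT7). Among those that fell, KRT8 (-0.28) kept its call only without adapted replicate 1 among the fits that left out a sample (limma adjusted p up to 0.134). CDH1 was at 0.01 with all samples and passed the threshold without adapted replicate 1 (0.20, limma adjusted p = 0.00646). Of 10 immune markers 9 had a mean below 1, CD3E, CD2 and MS4A1 were listed at 0 in every sample, and PTPRC was at 0 in parental cells and at most 0.08 in adapted cells. The summed FPKM of the immune list was 75.4 to 77.9 in parental and 15.6 to 30.1 in adapted cells, nearly all of it CD68, a lysosomal protein that fell from 6.25 ± 0.02 to 4.40 ± 0.50. All 5 endothelial markers and 5 of 6 fibroblast markers had a mean below 1 over all samples, with summed FPKM of 1.17 to 1.89 and 3.04 to 3.17 in parental cells and of 1.49 to 3.50 and 8.60 to 9.33 in adapted cells. Of the endothelial markers, CDH5 went from 0.21 ± 0.05 to 1.71 ± 0.47 and PECAM1 from 1.22 ± 0.21 to 0.09 ± 0.02. COL1A1, the fibroblast marker that was tested, rose from 2.02 ± 0.02 to 3.14 ± 0.16 (limma adjusted p = 7.8e-05), and COL3A1 was at 1.37 in adapted replicate 1. The part of these shifts in the results that follow was not tested. In bulk samples, fewer cells of a type and less RNA per cell cannot be told apart.

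Of the 10 members, 2 rose (IL6ST and LIFR) and 3 fell (STAT3, SOCS3 and PIM1), which is 50.0% of them beside the 56.9% of all rows. In 7 members the samples of the groups did not overlap, beside 66.3% of all rows tested, so neither share sets the members apart from other genes. With a change of at least 1 on the log2 scale required as well, 10.5% of all rows and 0 of the 10 members passed (SOCS3 came nearest, at -0.96). The median log2 fold change of the members was -0.07, beside 0.03 over all rows tested, and the median absolute change was 0.16, beside 0.31. IL6ST and LIFR, which rose, are receptor chains, but the chains OSMR and IL6R did not pass the threshold. Of those that fell, STAT3 lost its call in 5 of 6 fits that each left out 1 sample. Whether STAT3 had a part in the falls of SOCS3 and PIM1 was not tested.

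**Figure D1:**
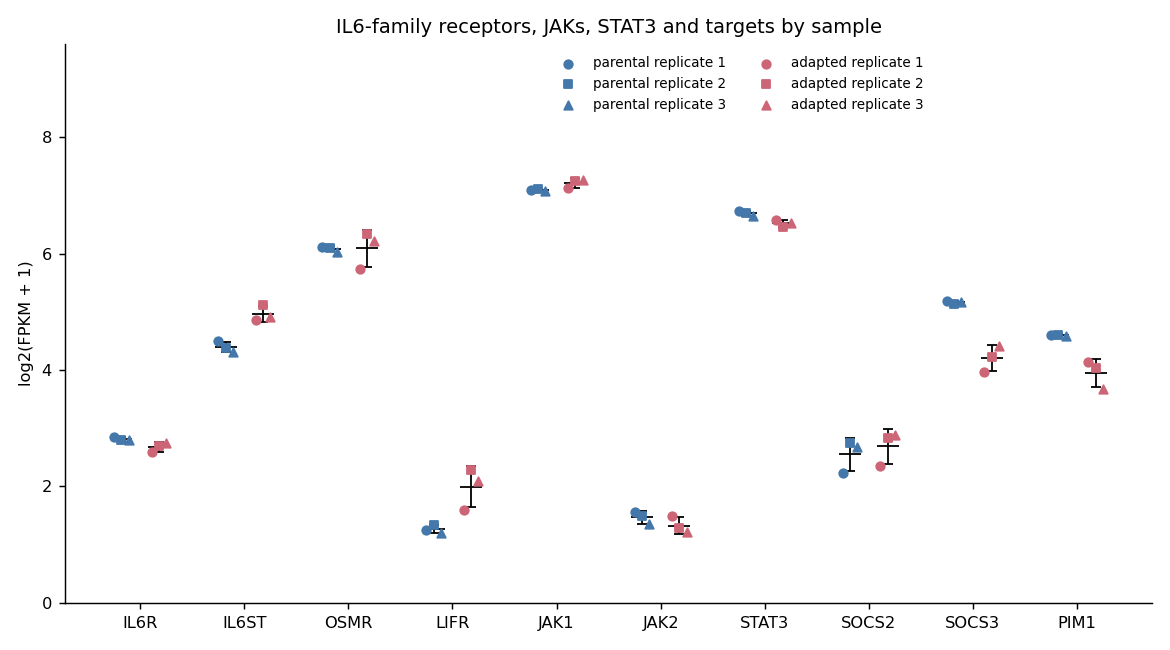
Level of each member in every sample, as log2(FPKM + 1) on the vertical axis, with parental samples in blue, adapted samples in red and the symbol giving the replicate number. Horizontal bars are means and vertical bars are SD (n = 3). IL6ST and LIFR sit higher in every adapted sample, SOCS3 and PIM1 lower, and OSMR spreads around an equal mean because adapted replicate 1 lies below the other samples.

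Where the members lie in the genome and which transcripts share their bases bears on their values. In GRCh38 (GENCODE v29) LIFR is at chr5:38474963-38608354 on the minus strand and OSMR at chr5:38845858-38945596 on the plus strand, with IL6ST at chr5:55935095-55994993 (minus) on the same chromosome. IL6R is at chr1:154405193-154469450 (plus), JAK1 at chr1:64833229-64966504 (minus) and JAK2 at chr9:4984390-5128183 (plus). STAT3 and SOCS3 share a chromosome, at chr17:42313324-42388568 and chr17:78356778-78360077 (both minus). SOCS2 is at chr12:93569814-93583487 (plus) and PIM1 at chr6:37170203-37175426 (plus). Exons of opposite-strand genes cover 8.58% of the exonic bases of IL6ST (AC008914.1), 5.3% of those of LIFR (LIFR-AS1), 4.09% of those of SOCS2 (SOCS2-AS1), 3.19% of those of OSMR (RICTOR) and 0.0633% of those of JAK1 (RAVER2). Whether reads were counted by strand is not stated, so reads from these shared bases cannot be told apart.

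Promoter windows of 300 bases, 250 before and 50 after each start in RefSeq (GRCh38.p14), were searched for the core that STAT dimers are known to bind, TTCNNNGAA, which reads the same on both strands. A window was at hand for 9 members (all but SOCS2), 17 windows in all. The core was found in 2 of these 17 windows, both of them LIFR starts, beside 7.66% of 35116 windows of all genes, and 1 of 9 members held it beside 9.38% of 27305 genes. Such a match is a string of letters and not a measured binding site. The bases upstream of the LIFR starts with the core are shown because LIFR rose most, with the core in capitals, and those of SOCS3 and PIM1 because they fell most. The third LIFR window (chr5:38556597-38556896) does not hold the core and is not printed, nor is the other SOCS3 window (chr17:78359618-78359917), which overlaps annotated exons. In both SOCS3 windows and in that of PIM1 the letters do not occur, from which nothing follows about the factor. Neither SOCS3 window covers the bases just upstream of the SOCS3 start in GENCODE (chr17:78360077, minus strand). That stretch was not searched. Each sequence runs 5′ to 3′ on the strand of the gene and ends at the base before a start.
LIFR, chr5:38557468-38557667, minus strand: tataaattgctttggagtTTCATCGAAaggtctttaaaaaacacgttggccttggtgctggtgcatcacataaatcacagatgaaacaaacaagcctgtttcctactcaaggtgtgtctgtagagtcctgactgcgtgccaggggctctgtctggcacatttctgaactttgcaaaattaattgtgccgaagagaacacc
LIFR, chr5:38595406-38595605, minus strand: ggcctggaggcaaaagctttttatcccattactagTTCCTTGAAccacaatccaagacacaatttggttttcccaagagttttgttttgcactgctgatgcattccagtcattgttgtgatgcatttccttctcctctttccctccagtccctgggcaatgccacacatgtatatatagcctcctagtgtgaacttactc
SOCS3, chr17:78360926-78361125, minus strand: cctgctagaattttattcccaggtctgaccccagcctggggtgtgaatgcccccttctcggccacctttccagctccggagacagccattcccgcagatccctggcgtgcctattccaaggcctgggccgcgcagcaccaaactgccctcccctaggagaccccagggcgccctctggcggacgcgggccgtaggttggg
PIM1, chr6:37169952-37170151, plus strand: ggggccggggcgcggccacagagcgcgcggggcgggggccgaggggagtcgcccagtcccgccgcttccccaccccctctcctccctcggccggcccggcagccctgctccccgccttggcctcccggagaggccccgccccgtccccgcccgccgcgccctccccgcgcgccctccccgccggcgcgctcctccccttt
In the first LIFR stretch the core is TTCATCGAA and begins 182 bases before the start, and in the second it is TTCCTTGAA and begins 165 bases before it.

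Of the receptor chains, IL6ST and LIFR rose, and OSMR and IL6R did not pass the threshold. IL6ST, the gp130 chain shared by the family, was at 4.49, 4.38 and 4.31 in the parental samples and at 4.86, 5.12 and 4.91 in the adapted samples. Every adapted sample was above every parental sample. IL6ST rose from 4.39 ± 0.09 to 4.96 ± 0.14 (SD, n = 3), a log2 fold change of 0.57 (SE 0.09, 95% interval 0.36 to 0.78, limma adjusted p = 0.00127). In FPKM the mean went from 20.0 to 30.3, a ratio of 1.51, and 25.9% of all rows tested had a larger absolute change.

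LIFR, the chain that pairs with gp130 to bind LIF, was at 1.26, 1.34 and 1.20 in parental and at 1.60, 2.28 and 2.10 in adapted cells. The groups did not overlap, and adapted replicate 1 was the lowest of the adapted samples. LIFR rose from 1.27 ± 0.07 to 1.99 ± 0.36 (SD, n = 3), a log2 fold change of 0.73 (SE 0.17, 95% interval 0.33 to 1.13, limma adjusted p = 0.00881). LIFR was the lowest member in parental cells, with a mean FPKM of 1.41 that went to 3.06, a ratio of 2.18. On this scale the added 1 understates the change of a gene this low, and with 0.1 added instead the log2 fold change was 1.03.

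OSMR, the chain that pairs with gp130 to bind oncostatin M, was the highest of the receptor chains in both groups. It was at 6.12, 6.10 and 6.03 in parental and at 5.73, 6.33 and 6.21 in adapted cells. Adapted replicate 1 was below all parental samples and the other adapted samples were above them. The means were 6.09 ± 0.05 and 6.09 ± 0.32 (SD, n = 3), with a log2 fold change of 0.00 (SE 0.15, 95% interval -0.34 to 0.35, limma adjusted p = 0.986). Without adapted replicate 1 the log2 fold change was 0.18 and past the threshold (limma adjusted p = 0.0262), so the outcome for OSMR hangs on that sample.

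IL6R, the chain that binds IL6 itself, was at 2.85, 2.80 and 2.79 in parental and at 2.59, 2.70 and 2.75 in adapted cells. All adapted samples were below the parental samples, by little. The log2 fold change was -0.14 (SE 0.07, 95% interval -0.31 to 0.03, limma adjusted p = 0.132), from a mean FPKM of 6.05 to 5.40, and the threshold was not passed.

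**Figure D2:**
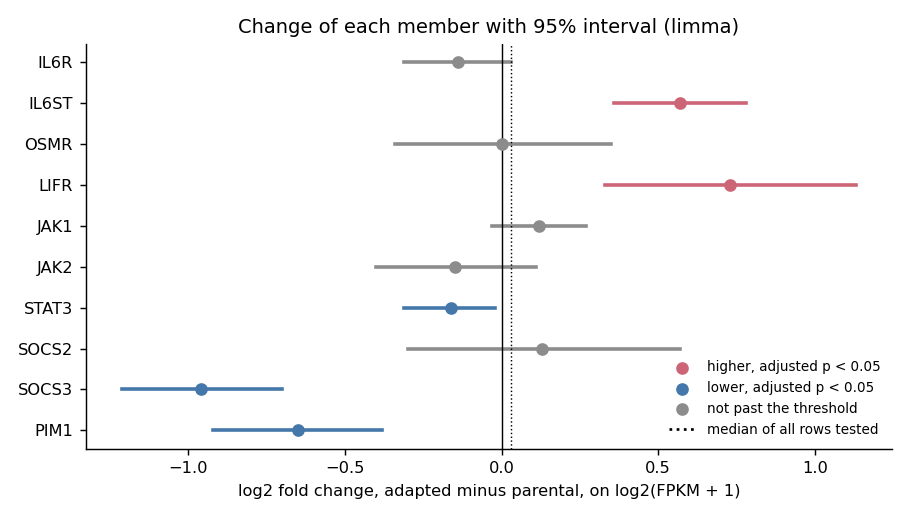
Log2 fold change of each member, adapted minus parental on the log2(FPKM + 1) scale, with its 95% interval from limma (3 samples a group). Red and blue points passed the threshold, grey points did not, and the dotted line is the median of all rows tested (0.03). The intervals of IL6ST and LIFR lie above 0 and those of SOCS3 and PIM1 well below it, whereas that of STAT3 ends at -0.02.

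The kinases and STAT3 showed small differences. JAK1, the kinase that gp130 signalling depends on most, was the highest of all members, at 7.10, 7.11 and 7.07 in parental and at 7.12, 7.25 and 7.27 in adapted cells. The groups did not overlap, and adapted replicate 1 lay next to the parental samples. The log2 fold change of JAK1 was 0.12 (SE 0.06, 95% interval -0.03 to 0.27, limma adjusted p = 0.14), and without adapted replicate 1 it was 0.17 and passed the threshold (limma adjusted p = 0.0133). JAK2, a kinase that also serves hormone receptors, was at 1.57, 1.50 and 1.35 in parental and at 1.49, 1.28 and 1.21 in adapted cells. These groups overlapped, and the log2 fold change of -0.15 (SE 0.11, 95% interval -0.40 to 0.11, limma adjusted p = 0.282) was not past the threshold.

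STAT3 was at 6.73, 6.69 and 6.65 in parental and at 6.58, 6.46 and 6.53 in adapted cells, without overlap. It fell from 6.69 ± 0.04 to 6.52 ± 0.06 (SD, n = 3), a log2 fold change of -0.16 (SE 0.06, 95% interval -0.31 to -0.02, limma adjusted p = 0.049), or from a mean FPKM of 102 to 91.1. This is a ratio of 0.891, and 71.4% of all rows tested had a larger absolute change. The call was lost in 5 of 6 fits that each left out 1 sample (all but the one without adapted replicate 1, adjusted p up to 0.168) and when samples were scaled to an equal sum without mitochondrial genes (-0.12, limma adjusted p = 0.131). The mRNA level says nothing of STAT3 phosphorylation, which was not measured in these files.

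SOCS3 and PIM1 showed the largest falls among the members, and SOCS2 did not pass the threshold. SOCS3, the feedback inhibitor of gp130, was at 5.18, 5.14 and 5.16 in parental and at 3.97, 4.23 and 4.41 in adapted cells. The parental samples lay close together and every adapted sample was well below them. SOCS3 fell from 5.16 ± 0.02 to 4.20 ± 0.22 (SD, n = 3), a log2 fold change of -0.96 (SE 0.11, 95% interval -1.21 to -0.70, limma adjusted p = 0.000312). Its mean FPKM went from 34.8 to 17.6, a ratio of 0.506, and 11.6% of all rows tested had a larger absolute change.

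PIM1, a serine/threonine kinase and survival factor transcribed in response to STAT3 and STAT5, was at 4.61, 4.60 and 4.58 in parental and at 4.14, 4.03 and 3.68 in adapted cells. All adapted samples were lower, with a wider spread. PIM1 fell from 4.60 ± 0.01 to 3.95 ± 0.24 (SD, n = 3), a log2 fold change of -0.65 (SE 0.11, 95% interval -0.92 to -0.38, limma adjusted p = 0.00245), and from a mean FPKM of 23.2 to 14.6, a ratio of 0.628.

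SOCS2, a feedback inhibitor best known from growth hormone and STAT5 signalling, behaved differently from SOCS3. It was at 2.23, 2.75 and 2.68 in parental and at 2.35, 2.83 and 2.88 in adapted cells. The groups overlapped and replicate 1 was the lowest of each group. The log2 fold change was 0.13 (SE 0.18, 95% interval -0.30 to 0.57, limma adjusted p = 0.56) and turned to -0.03 without parental replicate 1, so no direction can be given.

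For single members, an exact two-sided permutation test over 3 against 3 samples cannot give a p below 0.1. That value was reached by the 7 members whose groups did not overlap, and the exact permutation p was 0.2 for JAK2, 0.5 for SOCS2 and 1 for OSMR.

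The order of the members by level, compared in FPKM because that unit is scaled to length, held at the top and shifted below it. In parental cells the mean FPKM was 135 for JAK1, 102 for STAT3, 67.0 for OSMR, 34.8 for SOCS3, 23.2 for PIM1 and 20.0 for IL6ST. IL6R (6.05), SOCS2 (4.93), JAK2 (1.78) and LIFR (1.41) followed, and no neighbours in this order overlapped in their sample ranges. In adapted cells JAK1 (148), STAT3 (91.1) and OSMR (68.2) kept the top places, and IL6ST (30.3) stood above SOCS3 (17.6) and PIM1 (14.6), which overlapped each other. Below them SOCS2 (5.51) and IL6R (5.40) overlapped, and LIFR (3.06) stood above JAK2 (1.52).

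The balance between partner chains was read as the log2 difference of a pair of members within each sample, for 8 pairs, with an exact two-sided permutation test (smallest p 0.1, Benjamini-Hochberg adjusted over the 8 pairs 0.133). OSMR minus LIFR was 4.86, 4.77 and 4.83 in parental and 4.14, 4.05 and 4.10 in adapted cells. On this scale the SD within a group was 0.05 and 0.04, although each of the genes alone spread more in adapted cells. The added 1 compresses LIFR, which is low, so this tightness depends in part on the scale. In FPKM, OSMR was at 44.3 to 49.8 times LIFR in parental and at 20.6 to 25.8 times in adapted samples. For both genes, adapted replicate 1, which stood apart over all rows, was the lowest adapted sample. It was also the lowest for IL6R, IL6ST, JAK1, SOCS2 and SOCS3 and the highest for JAK2, STAT3 and PIM1. The shared pattern of OSMR and LIFR is thus not particular to this pair. OSMR minus LIFR changed by -0.73 (exact permutation p = 0.1, adjusted 0.133), and OSMR went from 47.8 to 22.8 times the FPKM of LIFR. The size of this change depends on the added 1 too, since it was -1.02 with 0.1 added and -1.07 with nothing added.

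The other receptor pairs set OSMR, IL6R and LIFR against IL6ST, and those of OSMR and IL6R moved with IL6ST. OSMR minus IL6ST went from 1.69 ± 0.05 to 1.13 ± 0.22 (SD, n = 3, exact permutation p = 0.1, adjusted 0.133), an FPKM ratio of 3.35 that became 2.24. IL6R minus IL6ST went from -1.58 ± 0.06 to -2.29 ± 0.13 (exact permutation p = 0.1, adjusted 0.133), an FPKM ratio of 0.302 that became 0.179. LIFR minus IL6ST was -3.13 ± 0.09 and -2.97 ± 0.25, a change of 0.16 with overlapping groups (exact permutation p = 0.4, adjusted 0.4). This change depends on the added 1, since it was 0.43 with 0.1 added and 0.48 with nothing added, with FPKM ratios of 0.0649 to 0.0770 in parental and 0.0724 to 0.114 in adapted samples, and it was 0.30 without adapted replicate 1 and 0.08 without adapted replicate 3. In every adapted sample the gp130 chain was thus higher relative to OSMR and to IL6R than in any parental sample.

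Below the receptors, SOCS3 and PIM1 were each set against STAT3, SOCS2 against SOCS3 and JAK1 against JAK2. STAT3 itself changed by only -0.16, so the differences from STAT3 mostly follow SOCS3 and PIM1 themselves. SOCS3 minus STAT3 went from -1.53 ± 0.04 to -2.32 ± 0.26 and PIM1 minus STAT3 from -2.09 ± 0.03 to -2.58 ± 0.23 (SD, n = 3, exact permutation p = 0.1 and adjusted 0.133 for each). As a ratio of FPKM to that of STAT3, SOCS3 went from 0.341 to 0.194. SOCS2 minus SOCS3 went from -2.61 ± 0.30 to -1.52 ± 0.11, a change of 1.09 (exact permutation p = 0.1, adjusted 0.133). JAK1 minus JAK2 was 5.62 ± 0.09 and 5.89 ± 0.23 with overlapping groups (exact permutation p = 0.2, adjusted 0.229), and JAK1 was at 76.6 and 99.7 times the FPKM of JAK2.

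**Figure D3:**
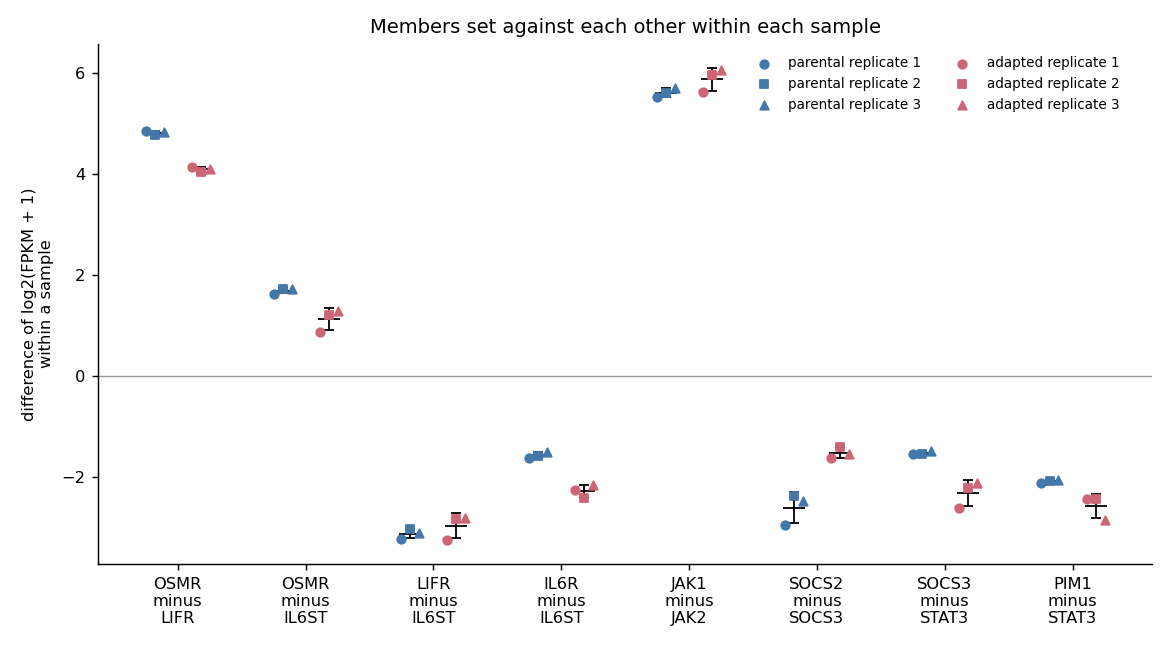
Difference of log2(FPKM + 1) between the members of each pair within a sample (vertical axis), with parental samples in blue, adapted samples in red, means as horizontal bars and SD as vertical bars (n = 3). OSMR minus LIFR is tight within each group on this scale (SD 0.05 and 0.04), on which the added 1 compresses LIFR. It is lower in every adapted sample, while LIFR minus IL6ST and JAK1 minus JAK2 overlap.

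The ligands of the family were next. Of 10 ligand genes 4 were tested and all 4 fell, beside 26.2% of all rows tested, with a median log2 fold change of -0.67. IL6 was at 4.75, 4.76 and 4.78 in parental and at 4.44, 3.88 and 4.08 in adapted cells, without overlap, and fell by 0.63 in log2 units (limma adjusted p = 0.00516). LIF, the ligand of LIFR, was at 4.34, 4.30 and 4.35 in parental and at 3.57, 3.71 and 3.62 in adapted cells and fell by 0.70 in log2 units (limma adjusted p = 0.000102). LIF thus fell while its receptor chain rose. EBI3, the shared subunit of IL27 and IL35, fell most, from 3.14 ± 0.11 to 1.76 ± 0.26 (log2 fold change -1.38, limma adjusted p = 0.000177). CLCF1, a ligand of the CNTF receptor, fell by 0.39 in log2 units (limma adjusted p = 0.0174), a call that was lost in 4 of 6 fits without 1 sample (parental replicates 1 and 2, adapted replicates 2 and 3, adjusted p up to 0.0667). The other 6 ligands had too low a mean to be tested. OSM, the ligand of OSMR, did not exceed 0.06 in any sample, and IL11 was the highest of the 6, at most 1.66 in adapted replicate 1.

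The other receptor chains of the family split. Of 6 listed chains 3 were tested, 2 rose and 1 fell, beside 30.7% and 26.2% of all rows tested. IL31RA, a gp130-like chain that pairs with OSMR, was at 1.80, 1.73 and 1.63 in parental and at 2.31, 2.66 and 2.46 in adapted cells and rose by 0.76 in log2 units (limma adjusted p = 0.000864). IL11RA, which binds IL11 and pairs with gp130, rose from 0.82 ± 0.20 to 1.29 ± 0.23 (limma adjusted p = 0.0337), a call that was lost without any one of the parental samples (adjusted p up to 0.111). Its parental mean was below the minimum of 1 for testing, which IL11RA met only through the adapted samples. Without adapted replicate 1 or 2 it was under that minimum and untested, so little weight rests on this rise. IL27RA, which pairs with gp130 to bind IL27, was at 3.73, 3.78 and 3.67 in parental and at 3.09, 2.79 and 2.78 in adapted cells and fell by 0.84 in log2 units (limma adjusted p = 0.000348). CNTFR, IL12RB1 and IL12RB2 did not exceed 0.27 in any sample.

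Among the other kinases and STAT factors, most values stayed near those of parental cells. TYK2, the JAK that serves interferon receptors as well as gp130, rose from 4.61 ± 0.05 to 4.87 ± 0.09 (log2 fold change 0.26, limma adjusted p = 0.0134), a call that was lost without parental replicate 1 (adjusted p 0.0605). JAK3 was too low to be tested, between 0.74 and 0.91 in all samples. Of the 6 other STAT genes 2 rose (33.3%, beside 30.7% of all rows), STAT2 and STAT6. STAT2, which carries type I interferon signals, was at 4.70, 4.80 and 4.72 in parental and at 5.73, 6.46 and 6.35 in adapted cells and rose by 1.44 in log2 units (limma adjusted p = 0.000432). STAT6, which carries IL4 and IL13 signals, rose from 5.83 ± 0.04 to 6.27 ± 0.10 (log2 fold change 0.44, limma adjusted p = 0.00144). The others did not pass the threshold, with STAT5B at 3.75 ± 0.04 and 3.83 ± 0.04 (SD, n = 3).

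All 15 other negative regulators were tested, and 2 rose and 4 fell, which is 40.0% of them beside 56.9% of all rows. SOCS1, the inhibitor of JAK kinases closest to SOCS3 in function, was at 3.08, 2.90 and 2.99 in parental and at 1.74, 1.51 and 1.84 in adapted cells. It fell by 1.29 in log2 units (limma adjusted p = 7.39e-05). PIAS2, a SUMO ligase that binds STAT proteins, fell by 0.61 and PTPN2, a phosphatase of JAK1 and STAT3, by 0.37 on the log2 scale, the latter not past the threshold when parental replicates 1 or 2 or adapted replicate 3 were left out in turn (adjusted p up to 0.0765). PTPN1, a phosphatase of JAK2 and TYK2, was at 4.22, 4.20 and 4.24 in parental and at 5.04, 5.09 and 5.08 in adapted cells and rose by 0.85 in log2 units (limma adjusted p = 2.3e-05). SOCS4, which belongs to the branch of the family linked to EGFR turnover, rose from 3.02 ± 0.13 to 3.37 ± 0.21 (log2 fold change 0.34, limma adjusted p = 0.0425), a call kept in 2 of 6 fits without 1 sample (without parental replicate 1 or adapted replicate 1, adjusted p otherwise up to 0.14). The SOCS genes thus went apart, with SOCS1, SOCS3 and SOCS6 lower, SOCS4 higher, and SOCS2, SOCS5 and SOCS7 not past the threshold. Without adapted replicate 1, 10 of the 15 regulators passed the threshold instead of 6, in a fit in which 8371 of 12653 rows passed.

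The other PIM kinases were PIM2 and PIM3. Both fell, as 26.2% of all rows did, PIM2 from 3.26 ± 0.02 to 2.31 ± 0.13 (log2 fold change -0.95) and PIM3 from 6.58 ± 0.04 to 4.77 ± 0.11 (log2 fold change -1.81). PIM3 was at 6.63, 6.56 and 6.55 in parental and at 4.76, 4.87 and 4.66 in adapted cells, without overlap. In mean FPKM PIM3 went from 94.8 to 26.3, so it was the highest PIM transcript in both groups.

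A list of 28 genes that textbooks give as STAT3 targets was read next. Of these 25 were tested, 16 fell and 2 rose, beside 26.2% lower and 30.7% higher of all rows tested, with a median log2 fold change of -1.03 beside 0.03. Without adapted replicate 1, 21 genes of this list passed the threshold instead of 18, in a fit in which 8371 of 12653 rows passed. LBP, an acute-phase protein that binds lipopolysaccharide, was at 3.41, 3.50 and 3.39 in parental and at 0.97, 0.12 and 0.31 in adapted cells, giving -2.97 as log2 fold change (limma adjusted p = 3.64e-05). FOS, a subunit of AP-1 and an immediate-early gene, went from 2.96 ± 0.05 in parental to 0.59 ± 0.06 in adapted cells (SD, n = 3) without overlap, giving -2.37 as log2 fold change (limma adjusted p = 1.99e-06). FGG, a fibrinogen chain, was at 4.33, 4.30 and 4.34 in parental cells and at 4.19 in adapted replicate 1 but at 1.24 and 0.83 in the others. Its log2 fold change was -2.23, -3.29 without adapted replicate 1, and its call was lost in the 5 other fits without 1 sample (adjusted p up to 0.142). The rest of those that fell, in order of size, were JUNB, SERPINA3, CEBPD, VEGFA, CEBPB, HIF1A, BIRC5, BCL3, FGA, ICAM1, TIMP1, MCL1 and TNFRSF1A. JUNB, another AP-1 subunit, went from 6.66 ± 0.02 to 4.66 ± 0.16 (SD, n = 3), and the log2 fold change of MCL1 and of TNFRSF1A was -0.26, the latter not past the threshold without parental replicate 2 or 3 (adjusted p up to 0.0571). Of these, FGA (fibrinogen, -1.23) had overlapping groups and passed the threshold only with all samples or without adapted replicate 1 among the fits that left out a sample.

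BCL2L1, which encodes the survival protein BCL-XL, went the other way, at 5.74, 5.81 and 5.78 in parental and at 6.55, 6.72 and 6.71 in adapted cells. It rose by 0.89 in log2 units (limma adjusted p = 5.61e-05), while MCL1, a survival protein of the same family, fell by 0.26 (limma adjusted p = 0.0091). The other gene that rose, CP (ceruloplasmin, a copper-carrying protein), had overlapping groups, and its call was lost in the 5 fits that left out a sample other than adapted replicate 1 (adjusted p up to 0.145). MCL1 and CP were named after their values were seen. Many genes of the list are also known to answer to MAPK or NF-κB signalling, and FOS is best known for the former, so the list is not a measure of STAT3 alone. LCN2, MYC and NNMT, which are on the list too and were picked after their values were seen, did not pass the threshold. Their log2 fold changes were -0.12, -0.07 and 0.92. The value of NNMT was the largest positive one among the tested genes of the list, and its groups did not overlap (limma adjusted p = 0.0509). NNMT passed without adapted replicate 1 (0.48, limma adjusted p = 0.00487) and without adapted replicate 3.

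**Figure D4:**
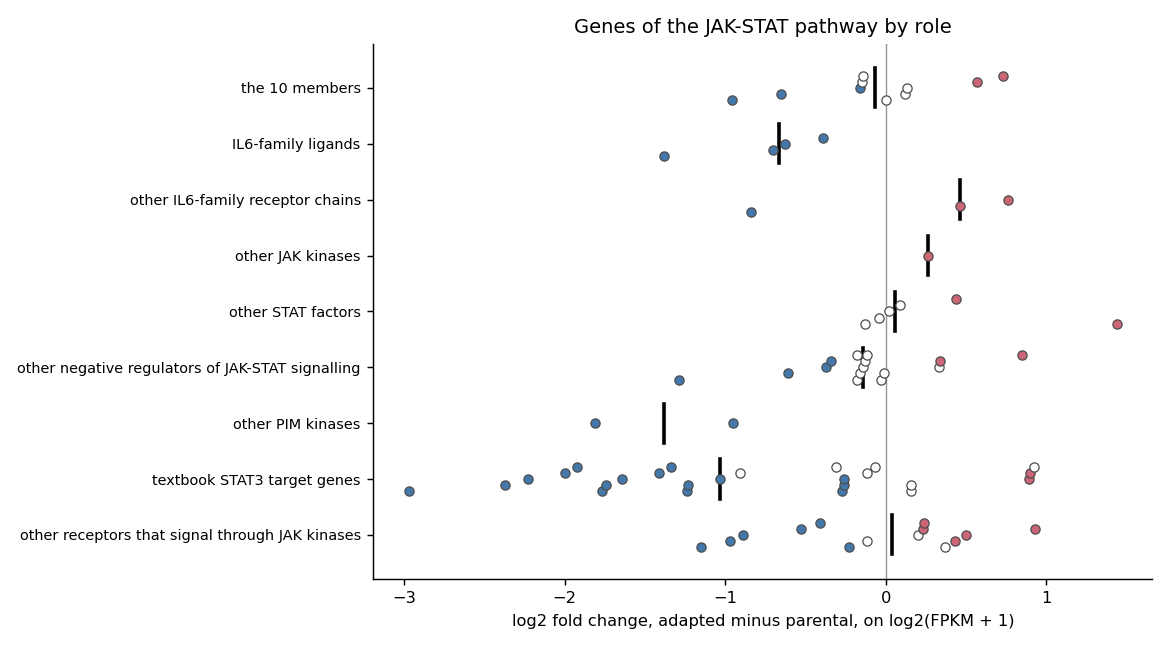
Log2 fold change, adapted minus parental on the log2(FPKM + 1) scale (horizontal axis), of every tested gene of the members and of 8 pathway lists, 1 point a gene. Red and blue points passed the threshold (higher and lower), open points did not, and black bars are the median of a list. The ligands (median -0.67), other PIM kinases (-1.38) and textbook STAT3 targets (-1.03) lie mostly to the left, whereas the members and the other STAT factors are centred near 0.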

How the data were processed

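RNA of 6 H1975 samples (3 parental, 3 adapted) was sequenced. The authors deposited 1 table of values on a log2 scale, taken as log2(FPKM + 1) because 27069 of 27216 rows returned to numbers of 6 decimals. In 147 rows 1 group was shifted by a constant, and no member or pathway gene was among them. The submitters' processing notes name Bowtie2 2.1.0, STAR, edgeR and hg38, with no role given. The quantifier and annotation are not given in the sources used here. The sample labels describe RNase R digestion of the RNA, and the study's methods name total RNA without it. Each of the 6 columns was matched to its sample through the group and number in its name, and all were used.

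The authors' methods name DESeq2 for counts. As the values are not counts, limma 3.58.1 in R 4.3.3 (lmFit, eBayes with trend, unpaired) was fitted to all rows with a mean of at least 1, with Benjamini-Hochberg adjustment. The script was tested on simulated data. Low values showed no steps of single reads, so depth was not recovered. Pairs were tested in Python 3.11.15 with scipy 1.17.1. Replicate numbers did not pair the samples (correlation of deviations -0.0509 to -0.0203).

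The members, lists and tests were chosen with earlier results of these data known. Named genes were all members and, per list, up to 3 that rose and 3 that fell most past the threshold without overlap; lists of up to 10 genes could be given in full. Some results for listed genes are not reported here. Alternatives were another pseudocount (0.1), no or a stricter filter (mean of at least 3), other scalings (quantile, equal sum with and without mitochondrial genes, median), other limma settings, a replicate block, each sample left out, loci without annotation or rows with a constant left out or corrected, and a minimum change of 1 on the log2 scale.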

Additional observations from a re-analysis of the deposited data

How the results depend on the processing

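Log2 fold changes of the members kept their direction and their side of the threshold in 173 instances, beside 5 that reversed, 2 that passed the threshold anew and 16 that lost it. Counts of calls stayed within 1.5 times their value except in 18 instances. The stricter filter left 7693 rows, of which 4532 passed, with IL6R, LIFR, JAK2 and SOCS2 untested, so 1 member was higher. It left 1 other receptor chain, 3 negative regulators and 1 other PIM kinase called. Requiring a change of 1 or more on the log2 scale left 1328 rows, 0 members in either direction (IL6ST 0.57, LIFR 0.73, STAT3 -0.16, SOCS3 -0.96, PIM1 -0.65), 0 other receptor chains, 0 other JAK kinases, and 1 gene each among ligands, other STAT factors, negative regulators, PIM kinases and other JAK-linked receptors. These follow from the construction of both settings.

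Leaving out each sample gave 5778 to 8371 rows, 2 to 4 members higher (4 without adapted replicate 1, where OSMR at 0.18 and JAK1 at 0.17 passed) and 2 to 3 lower. Log2 fold changes ranged from -0.12 to 0.18 for OSMR, 0.09 to 0.17 for JAK1, -0.19 to -0.13 for STAT3, -0.03 to 0.30 for SOCS2, 0.49 to 0.62 for IL6ST, 0.58 to 0.93 for LIFR, -1.06 to -0.84 for SOCS3 and -0.74 to -0.51 for PIM1. Other JAK kinases called ranged from 0 to 1 (0 without parental replicate 1) and negative regulators from 4 to 10. OSMR was -0.02 after median centring. STAT3 was not past the threshold after quantile normalization (-0.15, limma adjusted p = 0.0578), at an equal sum (-0.16, 0.0502), at an equal sum without mitochondrial genes (-0.12, 0.131), without a trend (-0.16, 0.0659) and with robust hyperparameters (-0.16, 0.0537). The cause was not tested. With the replicate number as a block 6761 rows passed instead of 7202 and STAT3 was at -0.16 with a limma adjusted p of 0.0956; same-numbered samples did not deviate together (r -0.0509, -0.0309 and -0.0203). All 8 pair differences kept their direction under each alternative run for them.

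Count tests could not be applied to these values, and counting error is unknown.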

Other observations

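Receptors outside the IL6 family that also signal through JAK kinases were described from a list of 21 genes, of which 14 were tested, 5 rose and 6 fell, beside 30.7% and 26.2% of all rows tested (median log2 fold change 0.04, beside 0.03 over all rows). Among these calls, that of LEPR was lost in 5 of 6 fits without 1 sample (all but the one without adapted replicate 1, limma adjusted p up to 0.14) and that of IFNGR1 without parental replicate 1 or 2 (limma adjusted p up to 0.0816). Without adapted replicate 1, 13 genes of this list passed the threshold instead of 11, in a fit in which 8371 of 12653 rows passed. EPOR, the erythropoietin receptor, was at 2.61, 2.58 and 2.53 in parental and at 3.19, 3.70 and 3.62 in adapted cells, a rise of 0.93 in log2 units (limma adjusted p = 0.000864). IL13RA1, a chain of the IL13 receptor, rose by 0.50 and IFNAR1, a chain of the type I interferon receptor, by 0.43 on the log2 scale. Every adapted sample was above the parental samples for each of them.

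IFNGR2, the accessory chain of the interferon-gamma receptor, was at 5.40, 5.51 and 5.53 in parental and at 4.35, 4.20 and 4.43 in adapted cells and fell by 1.15 in log2 units (limma adjusted p = 3.15e-05). IL20RB, a chain for IL20-type cytokines, fell by 0.97 and CRLF2, a chain of the TSLP receptor, by 0.89 on the log2 scale, also without overlap. The type I interferon receptor chain and STAT2 were thus higher and the interferon-gamma receptor chain lower in adapted cells.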
